A study of Mus musculus with 21 samples.

Results

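The platelet-derived growth factor (PDGF) ligands and receptors were examined, 7 of the 24540 genes listed in the deposited counts. They were chosen by name: the ligands Pdgfa, Pdgfb, Pdgfc and Pdgfd, the receptor tyrosine kinases Pdgfra and Pdgfrb, and the receptor-like gene Pdgfrl, which the count tables write as PDGFA, PDGFB, PDGFC, PDGFD, PDGFRA, PDGFRB and PDGFRL. PDGFs are secreted dimers that bring receptor chains together and switch on their kinase domains, which drives the growth and movement of fibroblasts and of the mural cells around blood vessels. The A and C chains act through the alpha receptor, the B chain binds both receptors, and the D chain acts mainly through the beta receptor. The C and D chains are secreted in a latent form that proteases must cut. Pdgfrl encodes a protein that resembles the extracellular part of the receptors and has no kinase domain.

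Gene expression was measured by bulk RNA sequencing in 21 cultures of mouse fibroblasts, in 7 groups of 3 cultures, to ask what loss of Prrx1 changes in 3 types of fibroblast. Prrx1 is a homeobox transcription factor of mesenchymal cells. Mouse embryonic fibroblasts (MEF) were WT, mutant or sgPrrx1. Fibroblasts from dorsal skin wounds at day 10 (wound-healing fibroblasts) and fibroblasts from mammary tumours of MMTV-PyMT mice (MMTV-CAF) were WT or sgPrrx1. All MEF and wound-healing cultures are labelled C57BL/6 and MMTV-CAF are labelled FVB/NJ. For the mutant MEF, whose genotype label reads KI, the protocol names the 129S-Prrx1tm1Jfm/Mmmh line. The paper lists that line as backcrossed to C57BL/6. How far is not given, so these cells may still differ from WT MEF in strain as well. The sgPrrx1 cells carried CRISPR/Cas9 with a guide RNA against Prrx1, and a guide named sgNS marked their WT controls. All cells had been immortalised with HPV E6/E7 and were grown in medium with serum, which itself contains PDGF. The labels do not say whether cultures of a group came from separate animals or derivations, or whether an sgPrrx1 line is 1 clone, so p-values measure only the spread between these cultures, which may be technical. Type of fibroblast cannot be told apart from tissue and table of counts, nor, where MMTV-CAF are compared, from the labelled strain. The same 3 WT MEF cultures served as controls for mutant and for sgPrrx1 MEF.

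Libraries held 69588655 to 134790440 counts, so that 3 counts corresponded to between 0.0222 and 0.0444 CPM, counts scaled to the size of the library. Prrx1 itself had 180.7 ± 13.1 CPM in WT MEF, 22.2 ± 3.41 in mutant MEF and 120.3 ± 23.2 in sgPrrx1 MEF (mean ± SD, n = 3). In wound-healing fibroblasts Prrx1 had 146.9 ± 4.68 CPM in WT and 64.9 ± 0.578 in sgPrrx1 cultures, and in MMTV-CAF 631.8 ± 4.63 and 306.0 ± 4.39 CPM. Its transcript therefore remained at 12.3, 66.6, 44.1 and 48.4% of the WT mean in mutant MEF, sgPrrx1 MEF, sgPrrx1 wound-healing fibroblasts and sgPrrx1 MMTV-CAF. A cut by Cas9 need not lower the transcript, and protein was not measured in these files. Col1a1, Col1a2 or Vim led the fibroblast markers in each group, whereas Lum, Fap, Dpp4 and Pi16 had group means of 0 to 3.62 CPM and Dcn had 0.142 CPM in mutant MEF. Of the markers of other cells, the leukocyte genes Adgre1 and Cd3e and the endothelial genes Tie1, Sox17 and Cldn5 had 0 counts in all 21 cultures. Others were detected: Cd14 had group means of 6.69 to 26.1 CPM, rising by 1.95 on the log2 scale in sgPrrx1 MMTV-CAF, and Cd68 had 0.698 to 2.44 CPM. Vwf had 3.82 CPM in WT MEF, Tek 2.16 CPM in WT MMTV-CAF, and Krt19 went from 52.9 to 0.184 CPM in MMTV-CAF. Pericyte and smooth muscle markers moved with Prrx1 loss and their values are given beside Pdgfrb.

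In the WT cultures both receptors were expressed above each ligand. Levels of different genes were compared as CPM per kb of exon. In WT MEF Pdgfrb had 46.1 ± 2.87 CPM per kb and Pdgfra 21.04 ± 1.61, followed by Pdgfa with 7.05 ± 0.459, Pdgfc with 2.63 ± 0.230, Pdgfd with 2.07 ± 0.158, Pdgfb with 1.32 ± 0.231 and Pdgfrl with 0.334 ± 0.117 (SD, n = 3). WT wound-healing fibroblasts had 26.8 ± 0.456 CPM per kb of Pdgfrb and 8.75 ± 0.182 of Pdgfra, and there Pdgfd, with 7.97 ± 0.115, was the most abundant ligand. WT MMTV-CAF had the highest receptor levels of the WT groups, with 194.6 ± 2.62 CPM per kb of Pdgfrb, 139.4 ± 2.49 of Pdgfra and 37.9 ± 0.643 of Pdgfrl. In those cells the ligands Pdgfa (5.82 ± 0.224 CPM per kb), Pdgfd (5.57 ± 0.198) and Pdgfc (5.01 ± 0.315) lay close together, and Pdgfb (0.0681 ± 0.0271) was far below them.

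Between WT types, 18 of 21 differences of members passed an adjusted p under 0.05 (edgeR quasi-likelihood test, Benjamini-Hochberg over 15093 genes). Of all genes tested, 77.4% passed between wound-healing fibroblasts and MEF (38.7% lower, 38.7% higher), 76.1% between MMTV-CAF and MEF (35.5% lower, 40.6% higher), and 76.8% between MMTV-CAF and wound-healing fibroblasts (36.8% lower, 40% higher), so most genes differed between the types. The widest differences of members were those of Pdgfrl, which was higher in WT MMTV-CAF than in WT wound-healing fibroblasts by a log2 difference of 6.95 ± 0.18 (SE) and than in WT MEF by 6.82 ± 0.18. Pdgfra was higher in WT MMTV-CAF than in WT MEF by a log2 difference of 2.73 ± 0.06. The differences that did not pass were those of Pdgfrl between wound-healing fibroblasts and MEF (-0.13 ± 0.19), Pdgfa between MMTV-CAF and wound-healing fibroblasts (0.13 ± 0.09) and Pdgfb between the same types (-0.17 ± 0.32), with adjusted p = 0.549, 0.210 and 0.647 in the same edgeR test.

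**Figure D1:**
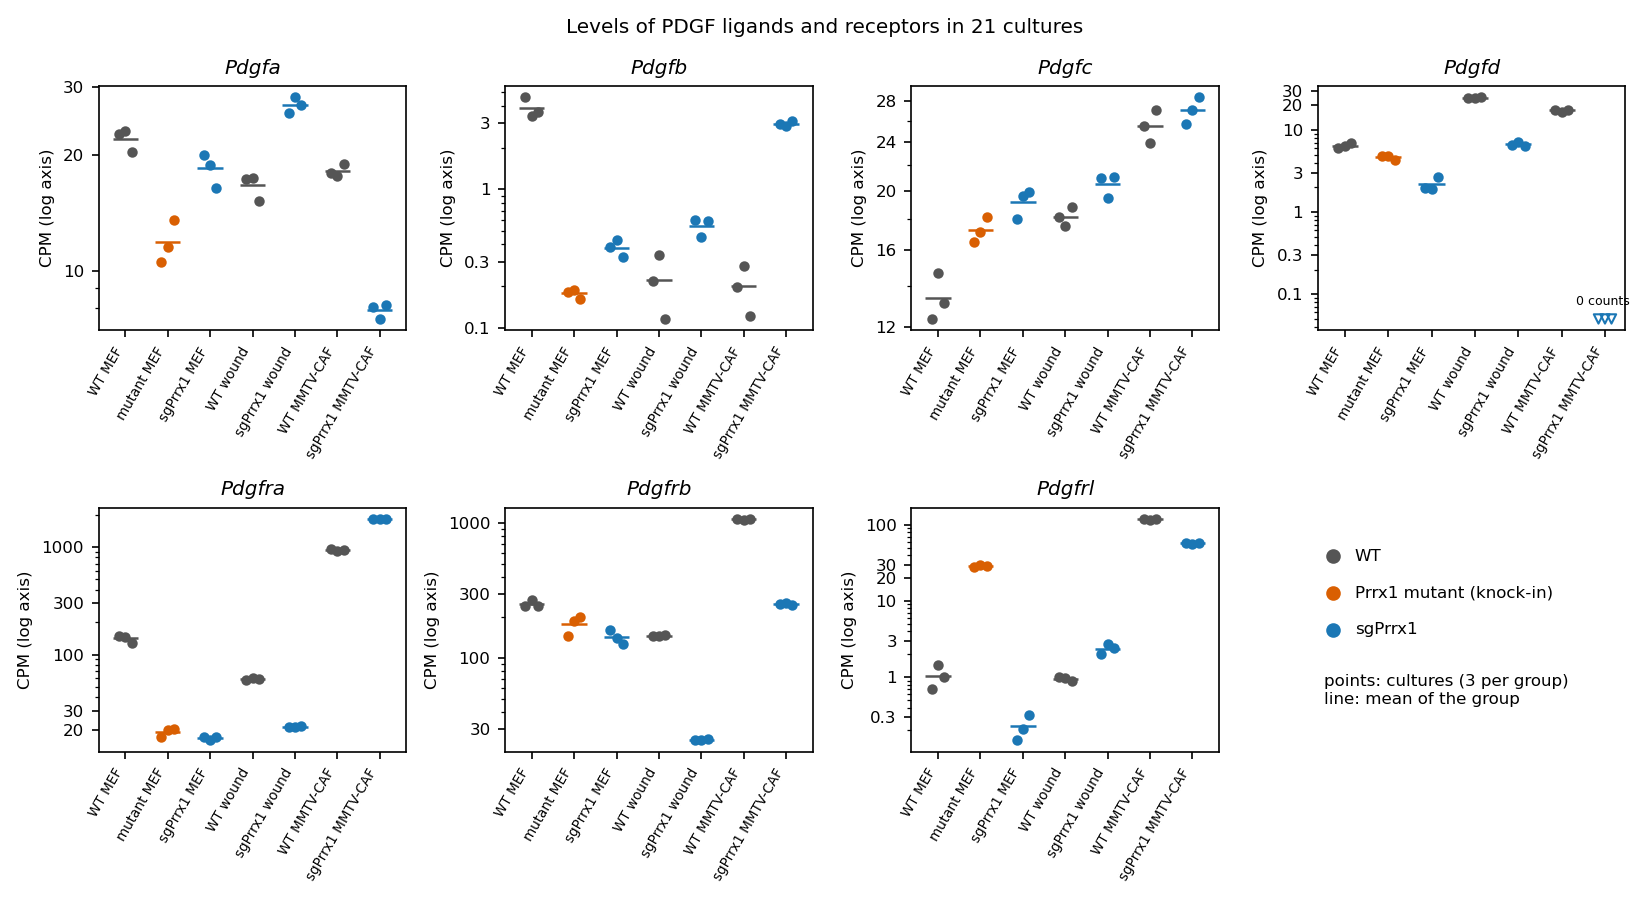
Level of each PDGF ligand and receptor in CPM (log axis, a scale of its own in each panel) in every culture, with 3 points and the mean as a line for each of the 7 groups, and open triangles for 0 counts. Pdgfra is far higher in MMTV-CAF than in the other fibroblasts, Pdgfd is at 0 counts in sgPrrx1 MMTV-CAF alone, and Pdgfrl is high in mutant MEF and low in sgPrrx1 MEF.

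Each group with Prrx1 loss was compared with WT of the same fibroblast type. Pdgfrb and Pdgfd fell in every comparison. Pdgfc had a positive change in each, which did not pass in sgPrrx1 MMTV-CAF. The direction of Pdgfa, Pdgfb, Pdgfra and Pdgfrl differed between comparisons. All 7 members passed the adjusted threshold in mutant MEF (5 lower, 2 higher), where 59.9% of all genes tested passed (30.5% lower, 29.4% higher). In sgPrrx1 MEF 6 of 7 passed (5 lower, 1 higher) beside 43.1% of all genes (22.8% lower, 20.3% higher). In sgPrrx1 wound-healing fibroblasts 7 of 7 passed (3 lower, 4 higher) beside 77.6% (39.3% lower, 38.3% higher). In sgPrrx1 MMTV-CAF the number was 6 of 7, of which 4 were lower and 2 higher, beside 83.1% (41.9% lower, 41.2% higher). With only 7 members these shares are coarse, and whether they differ from the background was not tested. Most genes passed in every comparison but that of sgPrrx1 MEF. All 7 members also passed the filter on low counts in each comparison. In MMTV-CAF Pdgfd did so through the WT group alone, since each sgPrrx1 culture had 0 counts. Its fall there enters the members called, those that did not overlap and the median. The median log2 fold change of the 7 members was -0.53 in mutant MEF, -1.56 in sgPrrx1 MEF, 0.17 in sgPrrx1 wound-healing fibroblasts and -1.07 in sgPrrx1 MMTV-CAF, while the median of all genes tested lay between -0.00318 and 0.00944. The values of the groups compared did not overlap for 7 members in mutant MEF, 7 in sgPrrx1 MEF, 7 in sgPrrx1 wound-healing fibroblasts and 6 in sgPrrx1 MMTV-CAF, beside 68.1, 56.5, 80.2 and 84.8% of all genes. In these bulk cultures, fewer cells that express a gene and less RNA per cell cannot be told apart.

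**Figure D2:**
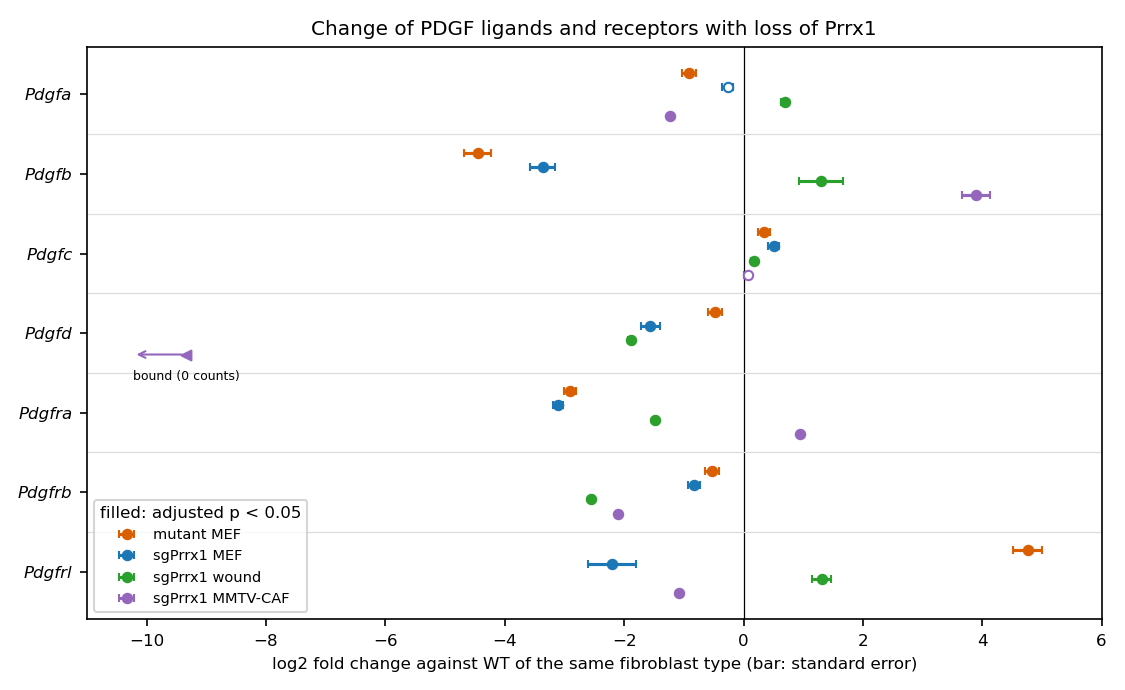
Log2 fold change of each member against WT of the same fibroblast type (x axis), with the standard error as a bar and 1 colour per comparison, filled where the adjusted p was under 0.05. Pdgfrb lies below 0 in all 4 comparisons and Pdgfc between 0.07 and 0.51, whereas Pdgfa, Pdgfb, Pdgfra and Pdgfrl lie on both sides of 0, and the arrow marks a bound for Pdgfd, which had 0 counts.

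Pdgfa encodes the A chain, a ligand of the alpha receptor that was the most abundant ligand of WT MEF. Its level was 22.6, 23.0 and 20.4 CPM in the 3 WT MEF cultures, 10.6, 11.5 and 13.5 CPM in mutant MEF, and 20.04, 18.9 and 16.4 CPM in sgPrrx1 MEF. Both MEF groups lay below every WT culture, mutant MEF by far the more. The log2 fold change was -0.91 ± 0.11 (SE) in mutant MEF, with an adjusted p of 0.000515 by the edgeR quasi-likelihood test, and -0.27 ± 0.10 in sgPrrx1 MEF, with an adjusted p of 0.0634 that did not pass. That call was close: the adjusted p in sgPrrx1 MEF was 0.0420 without WT replicate 3 and 0.0473 without sgPrrx1 replicate 1 (edgeR). In wound-healing fibroblasts Pdgfa had 17.4, 17.4 and 15.2 CPM in WT and 25.7, 28.2 and 26.9 CPM in sgPrrx1 cultures. This was the single group in which Pdgfa rose, by a log2 fold change of 0.69 ± 0.06 (adjusted p = 8.55e-06, edgeR). In MMTV-CAF it fell, from 17.9, 17.6 and 18.9 CPM in WT to 8.03, 7.49 and 8.13 CPM, a log2 fold change of -1.22 ± 0.05 (adjusted p = 7.82e-08, edgeR). The highest level over the 7 groups was therefore in sgPrrx1 wound-healing fibroblasts and the lowest in sgPrrx1 MMTV-CAF, while sgPrrx1 MEF overlapped with WT MMTV-CAF and with WT wound-healing fibroblasts.

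Pdgfb, which encodes the B chain and in tissue comes mostly from endothelial cells and platelets, was the least abundant ligand per kb in every group but sgPrrx1 MMTV-CAF, where Pdgfd had 0 counts. WT MEF had 4.63, 3.36 and 3.61 CPM of Pdgfb, mutant MEF 0.181, 0.189 and 0.161 CPM, and sgPrrx1 MEF 0.384, 0.428 and 0.322 CPM. Both MEF groups were thus well below the WT cultures, at 4.58 and 9.79% of the WT mean. The log2 fold changes were -4.45 ± 0.23 (adjusted p = 9.36e-06) and -3.36 ± 0.21 (adjusted p = 5.34e-05, both edgeR). The opposite direction was measured in the other types. Pdgfb rose from 0.219, 0.334 and 0.116 CPM to 0.604, 0.451 and 0.586 CPM in wound-healing fibroblasts, and from 0.196, 0.279 and 0.121 CPM to 2.95, 2.84 and 3.12 CPM in MMTV-CAF. No sgPrrx1 culture overlapped with its WT group in either type. The log2 fold changes were 1.29 ± 0.37 (adjusted p = 0.0112) and 3.89 ± 0.24 (adjusted p = 1.32e-06, edgeR). At these levels the counts were small, from 10 to 27 in WT wound-healing cultures and from 16 to 32 in WT MMTV-CAF, so a WT level is known less precisely than that of the other ligands.

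Pdgfc encodes the C chain, another ligand of the alpha receptor, and its log2 fold changes were the smallest of the members in mutant MEF, sgPrrx1 wound-healing fibroblasts and sgPrrx1 MMTV-CAF, while in sgPrrx1 MEF that of Pdgfa was smaller. It had 12.4, 14.7 and 13.1 CPM in WT MEF, 16.5, 17.1 and 18.1 CPM in mutant MEF, and 17.95, 19.6 and 19.9 CPM in sgPrrx1 MEF. All 6 cultures with Prrx1 loss lay above the 3 WT cultures. The log2 fold change was 0.34 ± 0.10 in mutant MEF (adjusted p = 0.0189) and 0.51 ± 0.09 in sgPrrx1 MEF (adjusted p = 0.00525, edgeR). The call in mutant MEF was lost without WT replicate 1 (adjusted p = 0.0634) or without mutant replicate 2 (adjusted p = 0.0569, edgeR). In wound-healing fibroblasts the level went from 18.1, 17.5 and 18.8 CPM to 20.97, 19.5 and 21.05 CPM, a log2 fold change of 0.17 ± 0.04 (adjusted p = 0.00580, edgeR). MMTV-CAF had the highest levels of Pdgfc, 25.5, 23.9 and 27.1 CPM in WT and 25.7, 27.1 and 28.4 CPM in sgPrrx1 cultures. These groups overlapped, and the log2 fold change of 0.07 ± 0.05 did not pass (adjusted p = 0.262, edgeR).

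Pdgfd, whose D chain acts mainly on the beta receptor, was the ligand that fell in all comparisons. It had 24.7, 24.6 and 25.3 CPM in WT wound-healing fibroblasts and 6.59, 7.10 and 6.46 CPM after sgPrrx1. The WT cultures of this type had the highest level of Pdgfd of all groups, and the fall was by 1.89 ± 0.04 on the log2 scale (adjusted p = 2.35e-09, edgeR). WT MMTV-CAF had 17.8, 16.7 and 17.6 CPM of Pdgfd, from 1910 to 2330 counts per library, and each of the 3 sgPrrx1 MMTV-CAF cultures had 0 counts. Set against 3 counts in each library, Pdgfd was at least 648-fold lower in sgPrrx1 than in WT MMTV-CAF. A loss of this kind was rare: of 9239 genes with a mean of at least 10 CPM in WT MMTV-CAF, 18 had 0 counts in all 3 sgPrrx1 cultures. The corresponding number was 7 of 8815 genes in mutant MEF, and 0 genes in sgPrrx1 MEF and in sgPrrx1 wound-healing fibroblasts. Whether the locus or its transcription was lost was not tested. In MEF the level was lower to begin with, at 5.98, 6.39 and 6.96 CPM in WT, 4.86, 4.80 and 4.37 CPM in mutant and 1.996, 1.93 and 2.67 CPM in sgPrrx1 cultures. The groups did not overlap, and the log2 fold changes were -0.48 ± 0.12 in mutant MEF (adjusted p = 0.0111) and -1.56 ± 0.16 in sgPrrx1 MEF (adjusted p = 0.000461, edgeR).

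The makeup of the ligands changed with these levels. Summed over the 4 ligands, WT MEF had 13.1 CPM per kb, of which Pdgfa made up 53.9%, Pdgfc 20.1%, Pdgfd 15.8% and Pdgfb 10.1%. In mutant MEF the sum was 8.75 CPM per kb, with 43.5% Pdgfa and 38.7% Pdgfc, and in sgPrrx1 MEF 10.5 CPM per kb, with 56.2% Pdgfa and 35.8% Pdgfc. Wound-healing fibroblasts went from a sum led by Pdgfd (47.0% of 17.0 CPM per kb) to one led by Pdgfa (57.5% of 15.002 CPM per kb). In WT MMTV-CAF, Pdgfa, Pdgfd and Pdgfc each made up between 30.4 and 35.3% of 16.5 CPM per kb. In sgPrrx1 MMTV-CAF the sum was 8.87 CPM per kb, of which Pdgfc made up 60.01%, Pdgfa 28.5% and Pdgfb 11.5%. These shares describe transcripts, not secreted protein, and they depend on the exon lengths used.

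**Figure D3:**
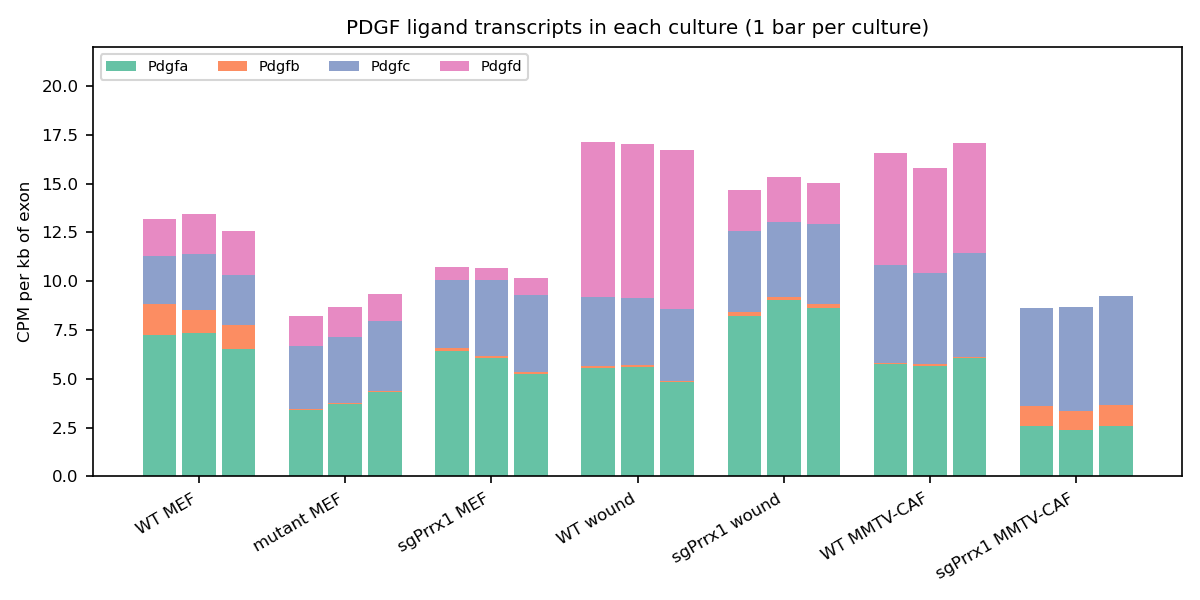
PDGF ligand transcripts in each culture as stacked bars (CPM per kb of exon, 1 bar per culture, 1 colour per ligand). Pdgfd takes the largest part of the bars of WT wound-healing fibroblasts and no part of those of sgPrrx1 MMTV-CAF, where Pdgfc takes 60.01%.

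Pdgfra, which encodes the alpha receptor and marks many fibroblasts, fell in MEF and wound-healing fibroblasts and rose in MMTV-CAF. Its level was 149.97, 145.9 and 129.5 CPM in WT MEF, 17.2, 20.04 and 20.2 CPM in mutant MEF and 16.9, 15.9 and 17.0 CPM in sgPrrx1 MEF. The WT cultures lay far above both other groups, which stood at 13.5 and 11.7% of the WT mean. The log2 fold change was -2.91 ± 0.10 in mutant MEF (adjusted p = 2.51e-06) and -3.11 ± 0.09 in sgPrrx1 MEF (adjusted p = 4.25e-06, edgeR). In wound-healing fibroblasts Pdgfra went from 57.6, 59.96 and 59.4 CPM to 21.1, 21.03 and 21.5 CPM, a log2 fold change of -1.48 ± 0.03 (adjusted p = 8.62e-10, edgeR). MMTV-CAF started from a much higher level, 956.7, 923.3 and 936.9 CPM in WT, and reached 1828, 1837 and 1840 CPM in sgPrrx1 cultures. The latter were the highest levels of Pdgfra in the series, and the log2 fold change was 0.95 ± 0.02 (adjusted p = 7.20e-10, edgeR).

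Pdgfrb, the beta receptor, was lower with Prrx1 loss in all 4 comparisons. The level was 243.0, 270.9 and 244.4 CPM in WT MEF, 146.4, 187.2 and 201.7 CPM in mutant MEF and 160.3, 142.0 and 127.1 CPM in sgPrrx1 MEF. Every culture with Prrx1 loss lay below every WT MEF culture, and the changes in MEF were modest, with log2 fold changes of -0.53 ± 0.12 (adjusted p = 0.00842) and -0.83 ± 0.10 (adjusted p = 0.000845, edgeR). The falls in the other types were larger. Wound-healing fibroblasts had 145.6, 145.2 and 149.7 CPM in WT and 25.1, 24.7 and 25.2 CPM in sgPrrx1 cultures, a log2 fold change of -2.56 ± 0.02 (adjusted p = 3.05e-11, edgeR). WT MMTV-CAF had 1075, 1050 and 1073 CPM and sgPrrx1 MMTV-CAF 251.1, 256.3 and 248.5 CPM, a log2 fold change of -2.10 ± 0.02 (adjusted p = 4.85e-11, edgeR). In sgPrrx1 MMTV-CAF Pdgfrb thus had the level of WT MEF, with which its cultures overlapped, whereas Pdgfra was far above that of any MEF culture.

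Markers of pericytes and smooth muscle, cells that also express Pdgfrb, moved in the same direction in part. Of 12 such markers, 9 were tested in sgPrrx1 MEF and all 9 fell, as did all 9 tested in sgPrrx1 MMTV-CAF. In mutant MEF 5 of 9 fell and 1 rose, and in sgPrrx1 wound-healing fibroblasts 4 of 8 fell and 3 rose. The summed level of the markers ranged from 4680 to 5633 CPM in WT MEF, from 2062 to 3189 CPM in mutant MEF and from 2459 to 3186 CPM in sgPrrx1 MEF. It went from a range of 3354 to 3513 CPM to one of 1987 to 2015 CPM in wound-healing fibroblasts, and from a range of 2585 to 2637 CPM to one of 151.2 to 155.3 CPM in MMTV-CAF. Most of these sums was Acta2 or Tagln, genes of the contractile apparatus that activated fibroblasts express too. Of the pericyte markers, Cspg4 had 278.6 CPM in WT MEF, 102.3 in mutant and 205.04 in sgPrrx1 MEF, and went from 27.4 to 8.27 CPM in wound-healing fibroblasts and from 47.7 to 4.96 CPM in MMTV-CAF. Notch3 went from 7.29 to 0.278 CPM in sgPrrx1 MEF and from 9.44 to 0.200 CPM in MMTV-CAF. It did not pass in mutant MEF (5.94 CPM, adjusted p = 0.198) or in wound-healing fibroblasts (7.93 to 7.47 CPM, adjusted p = 0.427, edgeR). Mcam rose from 24.2 to 38.3 CPM in mutant MEF. In wound-healing fibroblasts Mcam rose from 17.0 to 47.0 CPM and Anpep from 0.722 to 3.97 CPM. Both fell in sgPrrx1 MEF and sgPrrx1 MMTV-CAF. Rgs5 went from 1.65 to 0.537 CPM in MMTV-CAF and from 0.0594 to 0.685 CPM in wound-healing fibroblasts. Higd1b had 0 counts in all 21 cultures, and Kcnj8 had 0 counts in all sgPrrx1 MEF, wound-healing and MMTV-CAF cultures. Of the fibroblast markers, 12 of 12 tested fell in mutant MEF, and 8 of 12 fell and 1 rose in sgPrrx1 MEF. In sgPrrx1 wound-healing fibroblasts 10 of 14 fell and 2 rose, and in sgPrrx1 MMTV-CAF 10 of 13 fell and 3 rose, among them Dcn by 4.16 ± 0.02 on the log2 scale. For both marker lists, the shares of all genes that fell were 30.5, 22.8, 39.3 and 41.9% in mutant MEF, sgPrrx1 MEF, wound-healing fibroblasts and MMTV-CAF. The part of a changed cell makeup in the fall of Pdgfrb was not tested.

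The balance of the receptors shifted in opposite directions. The log2 ratio of Pdgfra to Pdgfrb counts within a culture, which does not depend on library scaling, was -0.84 ± 0.12 (SD, n = 3) in WT MEF, -3.21 ± 0.11 in mutant MEF and -3.10 ± 0.18 in sgPrrx1 MEF. Both groups with Prrx1 loss had moved away from Pdgfra, by -2.38 and -2.27 on the log2 scale. In wound-healing fibroblasts the log2 ratio went from -1.32 ± 0.03 to -0.24 ± 0.01, a difference of 1.08 towards Pdgfra, and in MMTV-CAF from -0.18 ± 0.01 to 2.86 ± 0.02, a difference of 3.05. In sgPrrx1 MMTV-CAF alone Pdgfra counts exceeded Pdgfrb counts, by 7.17 to 7.41 times. In each comparison the groups did not overlap, and the two-sided exact permutation test gave p = 0.1, the smallest value that 3 against 3 cultures allow. Per kb of exon, Pdgfra made up 31.3% of the sum of both receptors in WT MEF, 8.03% in mutant MEF, 8.62% in sgPrrx1 MEF, 24.6 and 40.8% in WT and sgPrrx1 wound-healing fibroblasts, and 41.7 and 85.6% in WT and sgPrrx1 MMTV-CAF. The sum itself went from 35.6 to 7.71 CPM per kb in wound-healing fibroblasts and from 334.0 to 318.4 CPM per kb in MMTV-CAF.

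**Figure D4:**
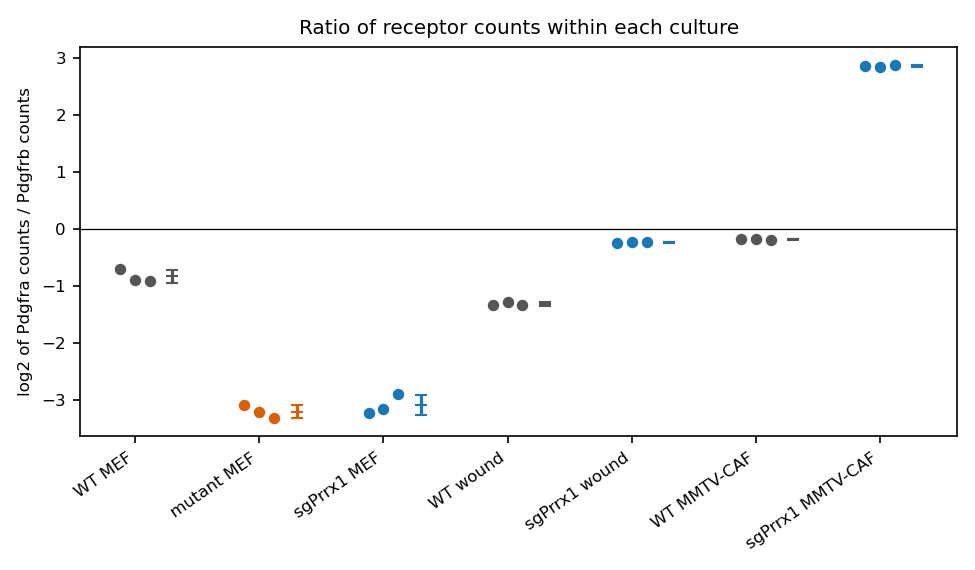
Log2 ratio of Pdgfra to Pdgfrb counts in each culture (points, 3 per group), with the mean and SD of the group beside them. Mutant and sgPrrx1 MEF lie near -3, below WT MEF, whereas sgPrrx1 cultures of the other types lie above their WT, those of MMTV-CAF near 2.86.

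Pdgfrl, the receptor-like gene, ranged over group means from 0.226 CPM in sgPrrx1 MEF to 118.4 CPM in WT MMTV-CAF. WT MEF had 0.696, 1.43 and 1.01 CPM, mutant MEF 27.97, 29.5 and 28.8 CPM and sgPrrx1 MEF 0.148, 0.207 and 0.322 CPM. Relative to the same WT cultures it was high in the one kind of Prrx1 loss and low in the other, with log2 fold changes of 4.76 ± 0.24 (adjusted p = 8.99e-06) and -2.20 ± 0.40 (adjusted p = 0.00512, edgeR). In sgPrrx1 MEF only 10 to 25 counts lay behind a value. Wound-healing fibroblasts had 1.01, 0.976 and 0.880 CPM in WT and 1.99, 2.72 and 2.42 CPM in sgPrrx1 cultures, a log2 fold change of 1.31 ± 0.16 (adjusted p = 8.20e-05, edgeR). MMTV-CAF had 120.6, 116.8 and 117.8 CPM in WT and 57.0, 56.1 and 57.8 CPM in sgPrrx1 cultures, a log2 fold change of -1.07 ± 0.02 (adjusted p = 3.37e-09, edgeR). No groups of a comparison overlapped. In mutant MEF the summed epithelial markers were higher too, from 197.5 to 238.9 CPM beside 17.8 to 19.96 CPM in WT MEF, nearly all of it Krt19. The list did not rise as a whole. Of 5 epithelial markers tested there, 3 rose and 2 fell, beside 29.4 and 30.5% of all genes. Krt14 fell from 5.88 to 0 CPM and Cdh1 from 0.503 to 0.0196 CPM, while Epcam, Krt5 and Esrp1 had 0 counts in both groups. The part of these markers in the rise of Pdgfrl was not tested.

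Mutant and sgPrrx1 MEF were also compared directly. In this test 4 of 7 members passed, near the share of all genes tested, 56.2% (28.4% lower, 27.8% higher). These groups may differ in strain and in the origin of the lines as well as in the kind of Prrx1 loss. Pdgfrl was lower in sgPrrx1 than in mutant MEF by a log2 difference of -6.96 ± 0.21 (adjusted p = 2.50e-06) and Pdgfd by -1.08 ± 0.15 (adjusted p = 0.00111, edgeR). Pdgfa was higher in sgPrrx1 MEF by 0.64 ± 0.12 (adjusted p = 0.00424), and Pdgfb by 1.09 ± 0.27 (adjusted p = 0.0135, edgeR), a call that was lost without sgPrrx1 replicate 2 (adjusted p = 0.0624). The differences of Pdgfc (0.16 ± 0.07), Pdgfra (-0.20 ± 0.08) and Pdgfrb (-0.31 ± 0.14) did not pass, although those of Pdgfra and Pdgfrb did without mutant replicate 1 (adjusted p = 0.0220 and 0.0190, edgeR). The Prrx1 transcript differed between these groups by 2.44 ± 0.18 on the log2 scale.

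The change with sgPrrx1 was then compared between fibroblast types in one model of 18 cultures. All 7 members passed the joint test of an interaction between type and sgPrrx1, beside 80.1% of all genes tested. For Pdgfd that test rests on the group with 0 counts. Between single types, 60.3% of all genes differed in their change between wound-healing fibroblasts and MEF (31.5% lower, 28.8% higher), 60.7% between MMTV-CAF and MEF (30.5% lower, 30.2% higher) and 66.5% between MMTV-CAF and wound-healing fibroblasts (31.7% lower, 34.8% higher). The sgPrrx1 change of Pdgfra was higher in MMTV-CAF than in MEF by 4.07 ± 0.07 on the log2 scale and higher in wound-healing fibroblasts than in MEF by 1.59 ± 0.07 (adjusted p = 2.28e-16 and 2.45e-11, edgeR). For Pdgfrb the change was lower than in MEF in both other types, with differences of -1.25 ± 0.09 in MMTV-CAF and -1.76 ± 0.09 in wound-healing fibroblasts. The change of Pdgfb differed most among members with counts in every group, by 7.27 ± 0.40 between MMTV-CAF and MEF and by 4.62 ± 0.42 between wound-healing fibroblasts and MEF. For Pdgfc the differences from MEF were -0.42 ± 0.09 in MMTV-CAF and -0.37 ± 0.09 in wound-healing fibroblasts, and that between MMTV-CAF and wound-healing fibroblasts (-0.05 ± 0.09) did not pass (adjusted p = 0.667, edgeR). For Pdgfd the difference between wound-healing fibroblasts and MEF was -0.37 ± 0.13 (adjusted p = 0.0303, edgeR). Leaving out single cultures moved it between -0.45 and -0.21, and the adjusted p between 0.0116 and 0.0963 (edgeR), highest without sgPrrx1 MEF replicate 3. The call was lost in 10 of these 18 fits.

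Other genes of the pathway were followed in lists. Of the proteases and binding proteins of PDGF, 8 of 9 tested fell in sgPrrx1 MEF and none rose, and 7 of 9 fell and 2 rose in sgPrrx1 MMTV-CAF. In mutant MEF 4 of 9 fell and 2 rose, and in sgPrrx1 wound-healing fibroblasts 5 of 10 fell and 3 rose. Of all genes tested, 22.8% fell in sgPrrx1 MEF, 41.9% in sgPrrx1 MMTV-CAF, 30.5% in mutant MEF and 39.3% in sgPrrx1 wound-healing fibroblasts. Sparc, whose matrix protein binds the B chain, fell in mutant MEF by 1.43 ± 0.17 and in sgPrrx1 wound-healing fibroblasts by 1.95 ± 0.02 on the log2 scale. It also fell in sgPrrx1 MEF (-0.72 ± 0.11) and in sgPrrx1 MMTV-CAF (-1.01 ± 0.02). Pcsk6, a proprotein convertase, fell by 1.97 ± 0.12 in sgPrrx1 MEF. In sgPrrx1 MMTV-CAF it fell by 3.23 ± 0.06, from 22.5 to 2.43 CPM. The largest rise of the list in mutant MEF was that of Thbs1, a matrix glycoprotein, by 0.68 ± 0.17, to 5741 CPM. Thbs1 fell in sgPrrx1 MEF (-1.35 ± 0.15), sgPrrx1 wound-healing fibroblasts (-0.33 ± 0.01) and sgPrrx1 MMTV-CAF (-1.13 ± 0.01). Medians of the list were -0.13, -0.72, -0.17 and -0.47 in mutant MEF, sgPrrx1 MEF, wound-healing fibroblasts and MMTV-CAF.

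Of the adaptors and enzymes that bind activated receptors, about as many passed as among all genes. Of 22 tested, 5 fell and 7 rose in mutant MEF, 5 fell and 5 rose in sgPrrx1 MEF, 8 fell and 11 rose in sgPrrx1 wound-healing fibroblasts, and 11 fell and 9 rose in sgPrrx1 MMTV-CAF, with medians between -0.13 and 0.08. The shares of all genes that passed were 59.9, 43.1, 77.6 and 83.1%. Gab1, a docking protein, fell by 1.67 ± 0.12 on the log2 scale in mutant MEF, and Pik3cb, a catalytic subunit of phosphoinositide 3-kinase, rose by 1.15 ± 0.09 there. Grb10, an adaptor that also restrains growth factor signalling, had a mean of 199.8 CPM in WT MMTV-CAF and 0 counts in all 3 sgPrrx1 cultures, as Pdgfd had. Of the 7 ubiquitin ligases, phosphatases and other proteins that limit receptor signalling, 2 fell and 3 rose in mutant MEF, 1 fell and 2 rose in sgPrrx1 MEF, 1 fell and 6 rose in sgPrrx1 wound-healing fibroblasts, and 3 fell and 3 rose in sgPrrx1 MMTV-CAF. These counts too stand beside 59.9, 43.1, 77.6 and 83.1% of all genes. Cblb, a ubiquitin ligase, rose by 1.59 ± 0.16 in mutant MEF and fell by 1.74 ± 0.03 in sgPrrx1 MMTV-CAF.

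Genes that PDGF and serum induce early in fibroblasts were followed next. Of 24 such genes, 17 rose and 6 fell in sgPrrx1 wound-healing fibroblasts, with a median log2 fold change of 0.42, where 38.3% of all genes tested rose and 39.3% fell. In sgPrrx1 MMTV-CAF 17 rose and 7 fell, with a median of 0.72, beside 41.2 and 41.9% of all genes. In mutant MEF 7 rose and 10 fell (median -0.07), beside 29.4 and 30.5%, and in sgPrrx1 MEF 8 rose and 7 fell (median -0.09), beside 20.3 and 22.8%. The medians of all genes tested were within 0.00944 of 0. In MMTV-CAF the largest rise was that of Cxcl1, a chemokine, from 23.4 to 463.8 CPM (log2 fold change 4.29 ± 0.05), and the largest fall that of Has2, a hyaluronan synthase (-1.88 ± 0.03). In wound-healing fibroblasts Lif, a cytokine, rose from 25.3 to 146.5 CPM (2.53 ± 0.03) and Egr2, a transcription factor, fell (-2.73 ± 0.10). In mutant MEF the chemokine Ccl2 was lower (-2.60 ± 0.13) and Cxcl1 higher (3.04 ± 0.13). In sgPrrx1 MEF the largest fall was that of Fos (-2.24 ± 0.16) and the largest rise that of Egr3 (1.17 ± 0.18). Serum in the medium induces these genes too, and the part of PDGF in their levels was not tested.

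Kinases related to the PDGF receptors, and their ligands, formed a further list. Kit and Flt3 were at or near 0 counts in all groups. Of 8 tested, 3 fell and 2 rose in mutant MEF, 3 fell and 2 rose in sgPrrx1 MEF, 3 fell and 4 rose in sgPrrx1 wound-healing fibroblasts, and 6 fell and 2 rose in sgPrrx1 MMTV-CAF, beside 59.9, 43.1, 77.6 and 83.1% of all genes that passed. Flt1, a receptor for vascular endothelial growth factor, fell from 21.4 to 0.129 CPM in mutant MEF (log2 fold change -7.36 ± 0.14) and rose from 13.4 to 31.7 CPM in sgPrrx1 MMTV-CAF (1.23 ± 0.03). Kdr, another such receptor, fell in sgPrrx1 wound-healing fibroblasts from 290.3 to 141.7 CPM (-1.04 ± 0.02).

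The members lie apart in the genome, on chromosomes 3 (Pdgfc), 5 (Pdgfa and Pdgfra), 8 (Pdgfrl), 9 (Pdgfd), 15 (Pdgfb) and 18 (Pdgfrb) (RefSeq, GRCm38.p6). Neighbours of Pdgfrl, Pdgfrb, Pdgfra and Pdgfd are described here, and those of Pdgfa, Pdgfb and Pdgfc are not. Pdgfrl lies at chr8:40926233-40990782, between Slc7a2, an amino acid transporter gene that ends 4163 bases before it, and Mtus1, which begins 130 bases after it. In mutant MEF, where Pdgfrl rose by 4.76 on the log2 scale, Slc7a2 rose from 8.14 to 95.3 CPM (log2 fold change 3.53 ± 0.14) and Mtus1 from 7.97 to 23.5 CPM (1.54 ± 0.20). Elsewhere the directions differed: Slc7a2 rose by 0.73 ± 0.09 in sgPrrx1 MEF, where Pdgfrl fell, and in sgPrrx1 wound-healing fibroblasts, where Pdgfrl rose, Slc7a2 rose by 0.39 ± 0.04 and Mtus1 fell by 0.25 ± 0.03. In sgPrrx1 MMTV-CAF all 3 genes fell, Slc7a2 by 0.40 ± 0.06 and Mtus1 by 1.35 ± 0.04 on the log2 scale. With annotations this close and no stated strand setting, reads near the end of Pdgfrl may be shared with Mtus1. Pdgfrb has Cdx1 8928 bases before it, with group means of at most 0.195 CPM. On the other side Csf1r, a macrophage receptor gene related to Pdgfrb, lies 20505 bases away. Csf1r fell by 4.87 ± 0.21 in sgPrrx1 MMTV-CAF, from 5.60 to 0.191 CPM, where Pdgfrb fell by 2.10, but rose by 0.94 ± 0.18 in sgPrrx1 wound-healing fibroblasts, where Pdgfrb fell by 2.56. Around Pdgfra, the neighbours Gsx2 and Kit, one of its relatives, had 0 or nearly 0 counts in every group. Pdgfd, at chr9:6168363-6534284, has Casp12 795329 bases before it and Dync2h1 394266 bases after it, much farther away than the neighbours of Pdgfrl and Pdgfrb. In sgPrrx1 MMTV-CAF these were at 69.3 and 20.8 CPM, with log2 fold changes of 0.11 ± 0.02 and 0.10 ± 0.04, while Pdgfd was at 0 counts. In sgPrrx1 wound-healing fibroblasts Casp12 fell by 2.33 ± 0.04 and Dync2h1 by 0.23 ± 0.05.

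RefSeq promoter windows were searched for 4 of the 7 members (Pdgfa with 2 starts, Pdgfc, Pdgfd and Pdgfra). No window of Pdgfb, Pdgfrb or Pdgfrl was searched, which need not mean that RefSeq lacks one, so their promoters are not described. The 250 bases before a start are shown for the receptor whose change turned direction between types. They are also shown for the ligand with 0 counts in sgPrrx1 MMTV-CAF and for Pdgfc, whose change was the smallest in 3 of the 4 comparisons with WT. Pdgfra is shown from chr5:75152001-75152250, Pdgfd from chr9:6168236-6168485 and Pdgfc from chr3:81036166-81036415, all on the plus strand of GRCm38.p6. A start used here need not be the first of its gene. In RefSeq, Pdgfra begins at chr5:75151322, so its window lies inside the gene. Pdgfd begins at chr9:6168363, within its window, and both Pdgfa windows lie inside that gene. Only the Pdgfc window ends just before its gene. For the other members the values below therefore do not describe only bases before the gene. Capitals mark matches to the motifs searched on both strands.
Pdgfra: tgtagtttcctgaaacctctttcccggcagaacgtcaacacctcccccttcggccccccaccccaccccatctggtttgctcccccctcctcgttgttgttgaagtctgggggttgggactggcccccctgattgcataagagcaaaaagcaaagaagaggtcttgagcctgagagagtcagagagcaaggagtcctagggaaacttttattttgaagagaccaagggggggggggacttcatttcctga
Pdgfd: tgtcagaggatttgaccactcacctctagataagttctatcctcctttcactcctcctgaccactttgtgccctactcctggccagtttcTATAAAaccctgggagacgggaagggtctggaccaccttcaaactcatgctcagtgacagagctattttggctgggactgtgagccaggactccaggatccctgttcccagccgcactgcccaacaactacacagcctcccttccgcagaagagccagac
Pdgfc: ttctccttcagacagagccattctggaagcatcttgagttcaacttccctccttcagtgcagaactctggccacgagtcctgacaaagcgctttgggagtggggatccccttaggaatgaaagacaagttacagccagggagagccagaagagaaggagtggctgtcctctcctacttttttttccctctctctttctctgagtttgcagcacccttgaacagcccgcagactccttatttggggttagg
The motifs were the homeodomain core ATTA, the palindrome TAATTA that contains it, the AP-1 site TGANTCA and the TATA box TATAAA, and they were chosen after the sequences could be seen. The single match over the 5 windows was a TATAAA in Pdgfd, a motif held by 12.4% of 32851 promoters of the same length. ATTA was held by 54.9% of promoters, TGANTCA by 6.75% and TAATTA by 4.84%. The windows of Pdgfra, Pdgfd and Pdgfc had GC contents of 54.4, 53.6 and 50.8%, near the median of 52.4%, and 4, 3 and 3 CpG dinucleotides beside a median of 6. Those of Pdgfa had 66.4 and 72.4% GC and 19 and 28 CpG dinucleotides. A match describes the letters of this window and nothing about binding.

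Genes whose levels ran most like those of each member were sought over the 21 cultures among 15093 genes, by Pearson's r of log2 CPM. The values describe 7 groups of 3 cultures that share a fibroblast type, so the cultures are not independent. Closest to Pdgfra was Ly6c1 (r = 0.990), followed by Xpnpep2 and Serinc3. For Pdgfrb the closest were Ehd2 (r = 0.974), Plcb4 and Vcan, for Pdgfrl Glis3 (r = 0.979), Gfpt1 and Atp10d, and for Pdgfd Arl6ip1 (r = 0.971), Gnpda2 and Piezo2. Pdgfa was closest to Rasa4 (r = 0.951), Pdgfb to Dock10 (r = 0.925) and Pdgfc to Pbx2 (r = 0.947). No member was among the 3 genes closest to another member.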

How the data were processed

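The authors deposited 3 tables of counts, 1 for each type of fibroblast, as whole numbers of reads without normalization. Their processing notes name Trimmomatic, STAR, HTSeq and the mm10 build, and the annotation and strand setting are not given in the sources used here. ComBat-seq is named after the text on human cells, and whether it was applied to these mouse libraries is not given. Libraries were prepared with TruSeq kits and sequenced in paired ends. All 21 count columns were used and 0 were left without a sample. MEF columns were assigned through the only KI group and wound-healing columns by elimination. Gene symbols, in capitals in the tables, are written in the mouse form. Counts from 1 to 20 were even in 51.0 to 60.3% of cases per culture.

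Counts were tested in R 4.3.3 with edgeR 4.0.16 (filterByExpr by group, TMM, glmQLFit and glmQLFTest), with only the 6 cultures of a comparison in its fit and a Benjamini-Hochberg adjusted p under 0.05 over all genes tested. The SE of a log2 fold change is its size divided by the square root of F. The interaction of type and sgPrrx1 used 18 cultures, and WT levels used all 21 with 1 mean per group, over the 24447 genes of all 3 tables. CPM levels use 1 TMM scale over 21 cultures. Exon lengths came from Gencode M1 (NCBIM37), and positions and promoters from RefSeq (GRCm38.p6). The test was tried on simulated counts in which all genes of a comparison had the same dispersion, so spread that differs between genes was left out. Of 200 genes changed by 1.5 on the log2 scale, 97.0% were called in mutant MEF and 98.5% in sgPrrx1 MEF. The share was 98.0% in sgPrrx1 wound-healing fibroblasts, 99.0% in sgPrrx1 MMTV-CAF and 96.0% between sgPrrx1 and mutant MEF. Of the calls, 4.37 to 6.80% fell on unchanged genes. Replicates of a group differed by more than counting noise, so none was counted as a duplicate. Intervals and floors of counts cover counting error only.

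The members and lists were chosen with earlier results of these data known. The genes named are Prrx1, the members, and the called gene of each list with the largest fall or rise in a comparison. Named too are the nearest protein-coding neighbours of Pdgfrl, Pdgfrb, Pdgfra and Pdgfd and the 3 genes most like each member. Alternatives were RLE and upper-quartile scaling, DESeq2 1.42.0, other filters, a replicate block, a 2-fold rule, all 21 cultures in one fit, and leaving out each culture.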

Additional observations from a re-analysis of the deposited data

Results flagged for a closer look

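The change with sgPrrx1 differed between MEF, wound-healing fibroblasts and MMTV-CAF for each of the 7 members, by a test of the difference itself (edgeR quasi-likelihood test of the interaction, Benjamini-Hochberg adjusted, 80.1% of all genes passed). The F statistic was 1753.86 for Pdgfra (adjusted p = 6.50e-16), which fell in MEF and wound-healing fibroblasts and rose in MMTV-CAF. For Pdgfd it was 837.339 (adjusted p = 6.23e-13), a value that rests on the 0 counts of sgPrrx1 MMTV-CAF, since Pdgfd passed the filter on low counts through the other groups. Between wound-healing fibroblasts and MEF alone its change differed by -0.37 (adjusted p = 0.0303), a call lost in 11 of 22 alternatives. Pdgfrb had an F of 187.746 (adjusted p = 2.50e-10) and fell in each type, most in wound-healing fibroblasts. Pdgfb had an F of 164.975 (adjusted p = 5.50e-10) and fell in MEF while it rose in the other types. Pdgfa had an F of 132.728 (adjusted p = 2.05e-09) and rose in wound-healing fibroblasts alone. Pdgfrl had an F of 79.8336 (adjusted p = 4.40e-08) and likewise rose there alone among sgPrrx1 cultures. The smallest F, 11.8327, was that of Pdgfc (adjusted p = 0.00130).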

How the results depend on the processing

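Over 77 comparisons of single members and 1477 alternative settings, 1446 kept the direction and the side of the threshold, 17 lost the call, 10 gained it and 4 changed sign. The sign changes were all among differences between WT groups that had not passed: Pdgfa between MMTV-CAF and wound-healing fibroblasts under upper-quartile scaling (-0.00992), Pdgfrl between wound-healing fibroblasts and MEF without WT MEF replicate 2 (0.160, lowest -0.318 when another culture was left out), and Pdgfb between MMTV-CAF and wound-healing fibroblasts without WT MMTV-CAF replicate 3 (0.106) or WT wound-healing replicate 2 (0.165, lowest -0.499). With a change of at least 2-fold also required, 3 members passed in mutant MEF in place of 7, and the genes called of all tested were 3283 in mutant MEF (8155 without that rule), 1411 in sgPrrx1 MEF (5764), 2179 in sgPrrx1 wound-healing fibroblasts (10811), 3377 in sgPrrx1 MMTV-CAF (11552) and 2838 between sgPrrx1 and mutant MEF (7513). Leaving out 1 culture gave between 3830 and 6340 genes called in sgPrrx1 MEF, lowest without WT replicate 2 and 3834 without sgPrrx1 replicate 2, with fewer cultures in the fit. Deviations of same-numbered cultures had correlations from -0.355 to 0.203, the highest between sgPrrx1 and WT MEF. A block for the replicate number raised the number of genes called in that comparison and lowered it in every other. Cultures with different numbers were not compared in this way, so whether replicate numbers pair the samples cannot be decided. With the replicate number as a block, Pdgfc (0.34, adjusted p = 0.0577) and Pdgfd (-0.48, adjusted p = 0.0549) in mutant MEF and Pdgfb between sgPrrx1 and mutant MEF (1.09, adjusted p = 0.0847) no longer passed, and Pdgfa in sgPrrx1 MEF did (-0.27, adjusted p = 0.0220, edgeR). The block gave 5 members called in mutant MEF, 7 in sgPrrx1 MEF, 7 in sgPrrx1 wound-healing fibroblasts, 6 in sgPrrx1 MMTV-CAF and 3 between sgPrrx1 and mutant MEF. Pdgfa in sgPrrx1 MEF also passed with DESeq2 (adjusted p = 0.0495), upper-quartile scaling (0.0481) and all 21 cultures in one model (0.0242). With all 21 cultures, the differences of Pdgfra and Pdgfrb between sgPrrx1 and mutant MEF passed as well (adjusted p = 0.00602 and 0.00520, edgeR). The difference of Pdgfd between wound-healing fibroblasts and MEF lost its call in 11 of 22 alternatives. Depth limits Pdgfb and Pdgfrl most, which had as few as 10 counts in a culture.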
